A study of Danio rerio with 21 samples.

Results

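The nuclear genes that encode subunits of the 5 complexes of oxidative phosphorylation were examined in the livers of zebrafish larvae. Members were taken by gene symbol, as those beginning with *ndufa*, *ndufb*, *ndufc*, *ndufs*, *ndufv*, *sdha* to *sdhd*, *uqcr*, *cox4* to *cox8* or *atp5*, leaving out the assembly factors *ndufaf* and *sdhaf*. This gave 96 of the 32520 genes in the count files, with 38 in complex I, 5 in complex II, 8 in complex III, 25 in complex IV and 20 in complex V. The *ndufa4* genes were placed in complex IV, to which the mammalian protein belongs. As the rule goes by symbol, *atp5if1a* and *atp5if1b*, which encode the ATPase inhibitory factor and no subunit, are counted in complex V and among the subunit genes. All 96 passed the filter on low counts, and 83 averaged 10 CPM or more over the genotypes, where CPM is the count scaled to library size. Genes at that level are called well expressed here.

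The RNA-seq libraries came from livers dissected at 7 days post fertilization from fish of the AB strain, with 3 libraries for each of 7 genotypes. WT larvae carried no mutation. The *sec31anju221* allele is a gene-trap insertion in *sec31a*, which encodes an outer coat protein of the COPII vesicles that leave the endoplasmic reticulum, and it is hypomorphic. All 5 other lines carried *sec31anju221* together with a CRISPR deletion: *xbp1-/-;sec31anju221*, *atf6-/-;sec31anju221*, *srebf1-/-;sec31anju221*, *srebf2-/-;sec31anju221* and *atf4a-/-;atf4b-/-;sec31anju221*. The added genes encode transcription factors of the unfolded protein response (*xbp1*, *atf6*), the integrated stress response (*atf4a*, *atf4b*) and lipid and sterol synthesis (*srebf1*, *srebf2*), and the lines are called by them below. *sec31anju221* is compared with WT, and each double mutant with *sec31anju221*, so these 5 comparisons share their control libraries.

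Oxidative phosphorylation takes place in the inner mitochondrial membrane. NADH dehydrogenase (complex I) and succinate dehydrogenase (complex II) pass electrons to ubiquinone, the cytochrome bc1 complex (complex III) passes them to cytochrome c, cytochrome c oxidase (complex IV) gives them to oxygen, and ATP synthase (complex V) makes ATP from the proton gradient. Most subunits are encoded in the nucleus and imported, and a small core set is encoded by mitochondrial DNA. Several subunits exist as paralogs. In mammals *COX6A2*, *COX7A1* and *COX8B* are the forms of heart and skeletal muscle, whereas *COX6A1*, *COX7A2* and *COX8A* are found in liver and most other tissues.

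The 3 libraries of a genotype differed by little more than the counting of reads allows. For members with at least 500 counts the variance divided by the mean averaged 1.5 to 2.52 in the 7 genotypes, where a coefficient of variation of 10% would give 13.5 to 28.6. They were therefore counted as 1 sample per genotype. No p-value is given, ranges over libraries show sequencing precision only, and a gene was called when its log2 fold change (log2FC) lay above 1 or below -1, that is past 2-fold. Totals ran from 9608400 to 23095746 counts per library. Scaling between libraries mattered: 21674 to 23458 genes reached 1 CPM of raw counts in *xbp1*, *atf6* and the libraries labelled *atf4a/b* against 11627 to 15433 elsewhere. With TMM factors the 5200 well-expressed genes had a median log2FC of -1.21, -1.52 and -1.25 in these 3 comparisons, 0.07 in *srebf1*, 0.14 in *srebf2* and -0.11 in *sec31anju221* against WT. Each log2FC is therefore also given less that median, as the relative log2FC.

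Of the targeted genes, *sec31a* was at 19.5 CPM in WT and 2.04 to 4.95 CPM in the mutants, *xbp1* fell from 103.8 to 0.385 CPM in its double mutant, *atf6* from 327.7 to 4.39 CPM and *srebf2* from 4.45 to 1.0 CPM. *srebf1* was at 1.57 CPM in *sec31anju221*, 0.457 CPM in *srebf1* and 0.407 CPM in *srebf2*. *atf4a* and *atf4b* were not lower in the libraries that carry their label, at 12.6 and 131.9 CPM against 6.41 and 88.4 CPM in *sec31anju221*, so these are called the libraries labelled *atf4a/b*. The study reported by qPCR that both mRNAs were absent in its knockout embryos. A deletion can leave transcripts that are still counted, so the label cannot be checked from the counts. The 20 hepatocyte markers, none at 0, summed to 88930 CPM in WT, 37100 in *sec31anju221*, 63270 in *srebf1*, 114600 in *srebf2*, 13800 in *xbp1*, 22490 in *atf6* and 30900 in the libraries labelled *atf4a/b*. With TMM factors the CPM of all genes summed to 2061000, 1314000, 1416000, 1781000, 479600, 479500 and 637000 in the same order. Marker sums in CPM, here and below, therefore depend on the scaling and are not shares of a library's counts. Summed markers of other cells ranged over the genotypes from 26.0 to 1995 CPM for exocrine pancreas, 70.7 to 3445 for intestine, 26.6 to 264.2 for erythrocytes, 62.8 to 1524 for macrophages, 703.6 to 3394 for biliary cells, 39.9 to 75.02 for endothelium and 41.9 to 74.6 for stellate cells, with *ptf1a* and *fabp6* the only ones at 0 in any genotype. In bulk samples, fewer cells of a type and less RNA per cell cannot be told apart, and the part of these cells in the results was not tested.

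Between *sec31anju221* and WT livers most subunit genes moved little, and a few moved far. The complex I accessory subunits *ndufa1* and *ndufb6* and the complex III hinge protein *uqcrh* were, among members reaching 10 CPM in a genotype, the highest in *sec31anju221*, with log2FC values of 2.24, 1.82 and 1.49. The lowest of these were the complex IV paralogs *cox6a2* (log2FC -5.46), *cox8b* (-1.64) and *cox7a1* (-1.54). Of 96 members, 10 were called higher and 13 lower, where 21.3% of all 30792 genes tested were called higher and 14.0% lower. Among the 83 well-expressed members 5 (6.02%) were called higher and 10 (12.0%) lower, against 16.0% and 18.1% of well-expressed genes. Their median log2FC was -0.14 and the relative median -0.03. They lay more than 2-fold above the median of well-expressed genes in 6 cases and below it in 7, where the shares of all such genes were 18.1% and 16.1%. Which direction was commoner depended on the scaling, since 36 of 83 were above 0 with TMM factors and 61 of 83 with library totals alone.

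Most subunit genes stood higher in the *srebf1* and *srebf2* double mutants than in *sec31anju221*, by less than 2-fold for the greater part. The median log2FC of the 83 was 0.60 in each, and the relative medians were 0.53 and 0.47. Some marker sums were also higher in these lines than in *sec31anju221*. Those of macrophages were at 152 CPM in *sec31anju221*, 470.7 in *srebf1* and 1524 in *srebf2*, of which 1 gene held 117.5, 379.9 and 1455 CPM. The hepatocyte markers were at 37100, 63270 and 114600 CPM. Other sums were lower in both lines, with endothelium at 75.02, 39.9 and 59.4 CPM, stellate cells at 74.6, 43.2 and 59.0 and skeletal muscle at 75.4, 50.2 and 46.3. The part of these cells was not tested. In *srebf1* 20 of 96 members were called higher and 3 lower, where 16.0% and 21% of genes tested were called. In *srebf2* 23 were called higher and 6 lower, against 15.3% and 34.0%. The share of well-expressed members called higher, 19.3% in *srebf1* and 24.1% in *srebf2*, was near the background of 15.5% and 23.1%. Few were called lower: 1 of 83 in *srebf1*, which was *sdhb*, and 2 in *srebf2*, *sdhc* and *ndufb6*, where 12.9% and 17.2% of well-expressed genes were. The number above the median of well-expressed genes was 72 of 83 in *srebf1* and 66 in *srebf2*, against 50% by definition. More than 2-fold above it were 11 in *srebf1* (background 13.6%) and 16 in *srebf2* (19.7%), and more than 2-fold below it 2 (14.3%) and 4 (20.0%). Over 4 scalings 71 to 76 of 83 were above 0 in *srebf1*, but 46 to 73 in *srebf2*, the lowest with library totals alone.

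In *xbp1* and the libraries labelled *atf4a/b* the sign of the members' median log2FC depended on the scaling. In *atf6* that median was below 0 under each of the 4 scalings, but its size ran from -1.7 with TMM factors to -0.18 with factors taken from well-expressed genes. With TMM factors 2 of 96 members were called higher and 33 lower in *xbp1* (15.8% and 19.0% of genes tested), 4 and 78 in *atf6* (19.9% and 22.1%), and 6 and 60 in the libraries labelled *atf4a/b* (19.0% and 21%). Among the 83 well-expressed members 31 (37.3%), 74 (89.2%) and 54 (65.1%) were called lower, where well-expressed genes were at 60.6%, 67.9% and 58.2%, and 0, 1 and 2 were called higher, against 1.23%, 2.04% and 3.50%. With factors taken from well-expressed genes, 66, 25 and 44 of 83 lay above 0 in place of 1, 1 and 6. Relative to well-expressed genes the members were thus higher than most in *xbp1*, lower in *atf6* and in the middle in the libraries labelled *atf4a/b*, with relative medians of 0.37, -0.22 and 0.03. More than 2-fold above that median were 4 members in *xbp1* (background 11.6%), 1 in *atf6* (18.8%) and 8 in the libraries labelled *atf4a/b* (19.6%), and as far below it 3 (13.1%), 14 (19.8%) and 12 (24.2%).

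**Figure D1:**
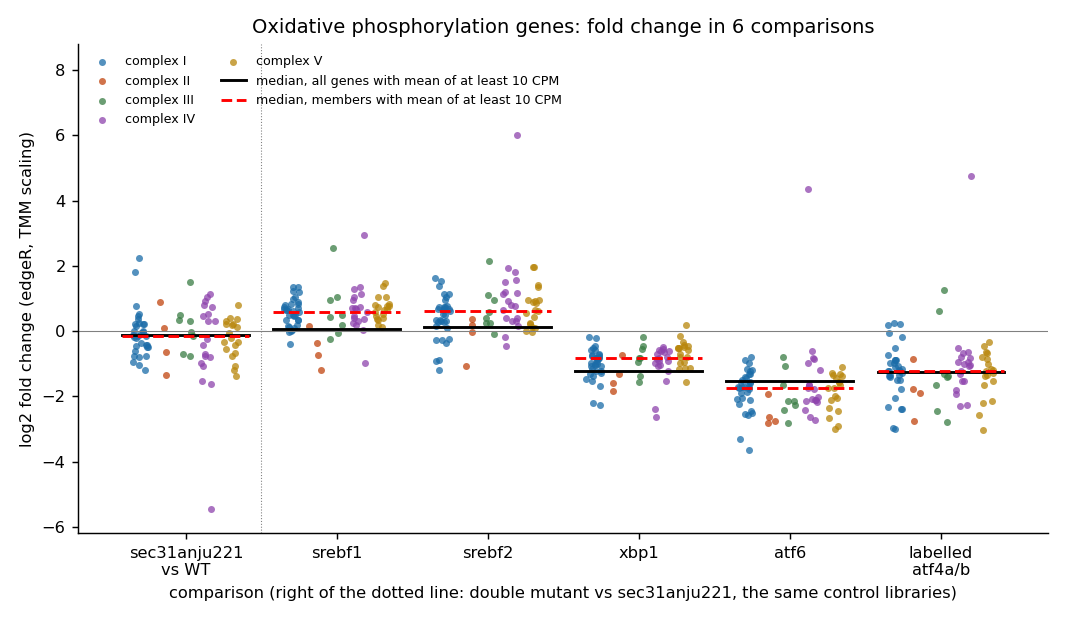
Log2 fold change (y axis, edgeR with TMM scaling) of the 83 well-expressed members in each of the 6 comparisons (x axis), coloured by complex, with the members' median as a dashed red line and that of all 5200 well-expressed genes as a black line. The members' median lies above the black line for *srebf1* (0.60 against 0.07), *srebf2* (0.60 against 0.14) and *xbp1* (-0.84 against -1.21) and below it for *atf6* (-1.74 against -1.52).

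The make-up of the members' counts does not depend on scaling. Complex IV took 23.8% of the members' counts in WT and 33.3% in *sec31anju221*, and complex III 2.77 and 3.88%. Most of the difference in complex IV came from *cox7a2a*, which took 5.82% of the members' counts in WT and 13.5% in *sec31anju221*, and without it the complex stood at 18% and 19.8%. Of its 19 well-expressed members 2 were called higher (*cox7a2a* and *cox8a*) and 4 lower (*cox6a2*, *cox7a1*, *cox8b* and *cox7a2b*), where 16.0% and 18.1% of well-expressed genes were. Complex I was at 38.3% in WT and 34.6% in *sec31anju221*, complex II at 1.88 and 1.42%, and complex V at 33.2 and 26.8%. For none of the 5 did the libraries of the 2 genotypes overlap. The share of complex V was above that of *sec31anju221* in each double mutant, at 31.1% in *srebf1*, 32.2% in *srebf2*, 30.4% in *xbp1*, 28.1% in *atf6* and 27.9% in the libraries labelled *atf4a/b*, while that of complex II was lower in each, at 0.895 to 1.1%. As a share of all counts the members took 1.36 to 1.37% in WT, 2.0 to 2.01% in *sec31anju221*, 2.48 to 2.51% in *srebf1*, 1.91 to 1.92% in *srebf2*, 3.07 to 3.08% in *xbp1*, 1.45 to 1.46% in *atf6* and 1.6% in the libraries labelled *atf4a/b*. Such shares also move with *apoa2*, which alone held 28.0 to 28.3% of counts in WT and 8.54 to 15.7% in the mutants.

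In complex I, *ndufa1* and *ndufb6*, accessory subunits of its membrane arm, had the widest differences among the 33 well-expressed members. *ndufa1* (ENSDARG00000036329) was at 68.3 to 72.4 CPM in WT, 329.3 to 337.2 CPM in *sec31anju221*, 324.0 to 331.6 CPM in *srebf1*, 172.8 to 180.5 CPM in *srebf2*, 67.6 to 71.2 CPM in *xbp1*, 32.1 to 35.1 CPM in *atf6* and 41.0 to 44.2 CPM in the libraries labelled *atf4a/b*. Only the *srebf1* libraries overlapped those of *sec31anju221*, and the others lay below them. Its relative log2FC was 2.35 against WT, and -0.09 in *srebf1*, -1.04 in *srebf2*, -1.06 in *xbp1*, -1.79 in *atf6* and -1.72 in the libraries labelled *atf4a/b*. *ndufb6* (ENSDARG00000037259) showed a like order, at 35.3 to 40.9 CPM in WT, 129.4 to 143.1 CPM in *sec31anju221*, 133.6 to 139.6 CPM in *srebf1*, 57.8 to 62.0 CPM in *srebf2*, 28.5 to 30.0 CPM in *xbp1*, 10.6 to 11.3 CPM in *atf6* and 16.0 to 17.5 CPM in the libraries labelled *atf4a/b*. Both genes were below *sec31anju221* in *xbp1*, *atf6* and the libraries labelled *atf4a/b* under each of the 4 scalings. The sum of the 11 intestine markers moved with these genes in part, at 1787 CPM in WT, 3445 in *sec31anju221*, 3438 in *srebf1*, 929.2 in *srebf2*, 621.7 in *xbp1*, 70.7 in *atf6* and 108.6 in the libraries labelled *atf4a/b*. Of that sum the 3 well-expressed markers held 1766, 3426, 3426, 920.6, 597.2, 39.96 and 81.71 CPM in the same order. The remaining markers of the list, low in every genotype, did not move with these genes. With TMM factors they summed higher in *xbp1*, *atf6* and the libraries labelled *atf4a/b* than in *sec31anju221*. In *srebf2* the sum was below that of WT, whereas *ndufa1*, *ndufb6* and *uqcrh* were above their WT levels. The part of intestinal cells in the levels of *ndufa1*, *ndufb6* and *uqcrh* was not tested. A level that is high in *sec31anju221* lowers every comparison that uses it as the control.

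*ndufa6*, the complex I member with the highest mean CPM, stayed near the median of well-expressed genes in the double mutants. It was at 1312 CPM in WT, 1801 CPM in *sec31anju221*, 2298 CPM in *srebf1*, 2218 CPM in *srebf2*, 884.6 CPM in *xbp1*, 673.1 CPM in *atf6* and 773.0 CPM in the libraries labelled *atf4a/b*, and its relative log2FC was between 0.03 and 0.28 in those 5 comparisons. The core subunits, which carry the flavin and the iron-sulphur clusters, were looked at as a class after their values had been seen. *ndufv1*, which holds the flavin that accepts electrons from NADH, was at 61.6 CPM in WT, 40.4 CPM in *sec31anju221*, 82.8 CPM in *srebf1* and 124 CPM in *srebf2* (log2FC 1.04 and 1.62 against *sec31anju221*). Its partner *ndufv2* was at 7.56 CPM in *sec31anju221*, 13.1 CPM in *srebf1* and 19.8 CPM in *srebf2*, with log2FC values of 0.79 and 1.38. *ndufs7*, which holds the last cluster before ubiquinone, did not share this, with log2FC values of 0.33 and -0.24, and in the libraries labelled *atf4a/b* it was at 87.6 CPM against 463 CPM (relative log2FC -1.15) where *ndufv1* and *ndufv2* had relative values of 1.08 and 1.48. *ndufs1*, a further core subunit, had 0 to 12 counts over the 3 libraries of a genotype, and could not be compared.

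Complex II, which is also an enzyme of the TCA cycle, had 4 well-expressed members. In *srebf1* their relative median was -0.63, against 0.54, 0.40, 0.61 and 0.61 for complexes I, III, IV and V. *sdhb*, the iron-sulphur subunit, was at 29.7 to 31.4 CPM in WT, 18.3 to 20.4 CPM in *sec31anju221*, 8.09 to 8.69 CPM in *srebf1* and 23.2 to 27.7 CPM in *srebf2* (log2FC -1.20 in *srebf1*). *sdha*, the flavoprotein that oxidizes succinate, was at 70.5 to 79.1 CPM in WT, 77.9 to 82.0 CPM in *sec31anju221*, 44.6 to 50.2 CPM in *srebf1* and 90.1 to 92.9 CPM in *srebf2* (log2FC -0.75 in *srebf1*). The *srebf1* libraries were thus the lowest of these 4 genotypes for both catalytic subunits. With TMM factors *sdhb* was lower still in *xbp1*, *atf6* and the libraries labelled *atf4a/b*, at 5.98 to 6.65, 2.54 to 3.55 and 5.48 to 5.96 CPM. *sdha* was at 29.6 to 34.2, 12.2 to 13.5 and 41.6 to 46.3 CPM there, the last overlapping *srebf1*. The membrane anchors *sdhc* and *sdhdb* were not lowest in *srebf1*, although *sdhc* was also below *sec31anju221* there. *sdhc* was at 127.6 to 139.8 CPM in *sec31anju221*, 98.7 to 107.7 CPM in *srebf1* and 63.8 to 64.6 CPM in *srebf2* (log2FC -0.36 and -1.07), and *sdhdb*, which has the highest mean CPM of complex II, was highest in WT, at 348.1 to 350.9 CPM against 133.9 to 141.3 CPM in *sec31anju221* (log2FC -1.34) and 133.4 to 153.6 CPM in the *srebf* lines. In *atf6* all 4 lay below the median of well-expressed genes, with relative log2FC values of -0.40 to -1.31.

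**Figure D2:**
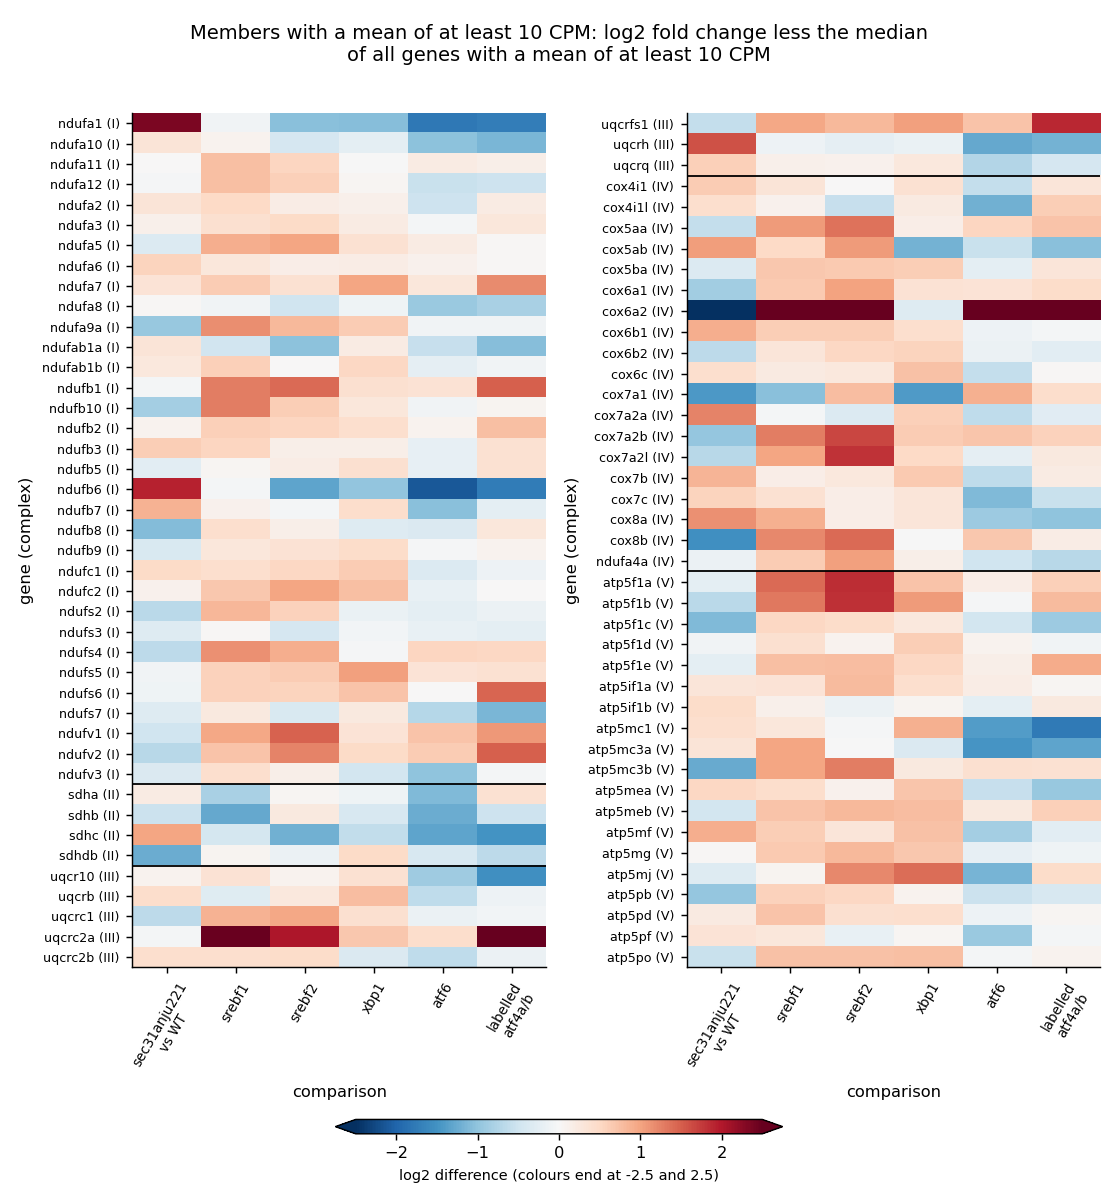
Relative log2 fold change (colour, log2FC less the median of well-expressed genes) of the 83 well-expressed members (rows, grouped by complex) in the 6 comparisons (columns), with colours ending at -2.5 and 2.5. Most rows of complexes I, III, IV and V are red under *srebf1* and *srebf2*, *sdha* and *sdhb* are blue under *srebf1* (-0.82 and -1.28), and *ndufa1* and *ndufb6* are red in *sec31anju221* against WT (2.35 and 1.93).

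Complex III held members that moved in opposite directions. *uqcrc2a* (ENSDARG00000014794), a core protein, was at 23.2 to 26.7 CPM in WT, 20.8 to 22.7 CPM in *sec31anju221*, 124.4 to 134.4 CPM in *srebf1*, 96.9 to 99.0 CPM in *srebf2*, 14.4 to 15.6 CPM in *xbp1*, 9.22 to 11.9 CPM in *atf6* and 51.0 to 55.0 CPM in the libraries labelled *atf4a/b*. Its log2FC was 2.55 in *srebf1*, 2.15 in *srebf2* and 1.27 in the libraries labelled *atf4a/b*, with relative values of 2.48, 2.01 and 2.52, and it was higher there under each of the 4 scalings. *uqcrfs1*, the Rieske iron-sulphur protein, was at 40.8 to 44.8 CPM in *sec31anju221*, 84.5 to 95.5 CPM in *srebf1*, 77.7 to 87.0 CPM in *srebf2* and 65.1 to 67.2 CPM in the libraries labelled *atf4a/b* (relative log2FC 0.96, 0.81 and 1.88). With TMM factors these subunits had their highest levels outside *sec31anju221*, unlike *uqcrh*. *uqcrh* (ENSDARG00000059128) was at 119.8 to 134.5 CPM in WT, 352.1 to 356.5 CPM in *sec31anju221*, 330.0 to 350.9 CPM in *srebf1*, 330.5 to 336.1 CPM in *srebf2*, 134.8 to 139.6 CPM in *xbp1*, 49.3 to 51.6 CPM in *atf6* and 63.9 to 66.3 CPM in the libraries labelled *atf4a/b*. In *xbp1* its log2FC was -1.37 with TMM factors and 0.08 with library totals alone, so its direction there rests on the scaling. In *srebf2* it was -0.09 with TMM factors and 0.08 with DESeq2's size factors, so which genotype held the most *uqcrh* also rests on the scaling. *uqcrq*, the member with the highest mean CPM, had relative log2FC values of 0.13 in *srebf1*, 0.11 in *srebf2*, 0.27 in *xbp1*, -0.74 in *atf6* and -0.41 in the libraries labelled *atf4a/b*.

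Complex IV held the widest difference of the whole group. *cox6a2* (ENSDARG00000054588), a small subunit, was at 109.6 to 115.3 CPM in WT and 2.24 to 2.74 CPM in *sec31anju221*. It was at 19.2 to 20.3 CPM in *srebf1*, 162.9 to 171.4 CPM in *srebf2*, 0.843 to 0.931 CPM in *xbp1*, 50.1 to 54.4 CPM in *atf6* and 65.9 to 73.4 CPM in the libraries labelled *atf4a/b*. The libraries of no 2 genotypes overlapped. Its log2FC against *sec31anju221* was 2.94 in *srebf1*, 6.02 in *srebf2*, 4.36 in *atf6*, 4.75 in the libraries labelled *atf4a/b* and -1.54 in *xbp1*, and the sign held under each of the 4 scalings, although in *xbp1* it came to -0.10 with library totals alone. Marker sums of several cell types moved with it in part. Like *cox6a2*, the hepatocyte, erythrocyte and biliary sums were, with TMM factors, highest in *srebf2*, next in WT and lower in the other genotypes. This order rests on TMM factors, under which the CPM of all genes summed to 2061000 in WT, 1781000 in *srebf2* and 479600 in *xbp1*. It was not examined under the other scalings. Among the remaining genotypes these sums did not follow *cox6a2*. In *atf6* and the libraries labelled *atf4a/b*, *cox6a2* was above *sec31anju221*, whereas with TMM factors all of these sums were below it. The hepatocyte sum was 37100 CPM in *sec31anju221*, 22490 in *atf6* and 30900 in the libraries labelled *atf4a/b*. The 10 erythrocyte markers summed to 233.1 CPM in WT, 109.4 in *sec31anju221*, 149.8 in *srebf1*, 264.2 in *srebf2*, 26.6 in *xbp1*, 32.7 in *atf6* and 37.7 in the libraries labelled *atf4a/b*. The 9 biliary markers summed to 2736, 1279, 1449, 3394, 949, 703.6 and 714.7 CPM in the same order, the 15 exocrine pancreas markers to 1995, 110.5, 763, 45.3, 26.0, 901.4 and 53.6 CPM, and the 13 skeletal muscle markers, none at 0, to 69.2, 75.4, 50.2, 46.3, 54.8, 66.2 and 55.5 CPM. The part of these cells in the level of *cox6a2* was not tested.

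**Figure D3:**
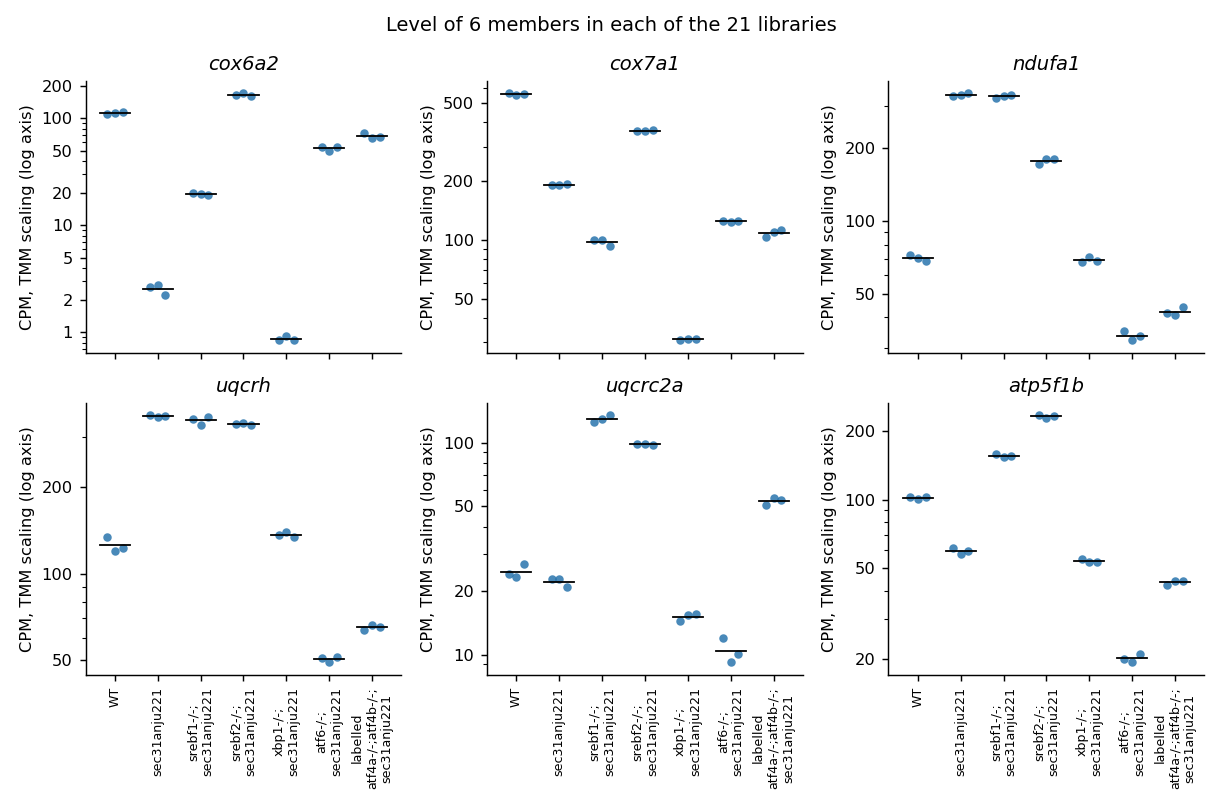
Level in CPM (TMM scaling, log axis) of 6 members in each of the 21 libraries, with 1 point per library, a line at the mean of the 3 libraries and the genotypes along the x axis. *cox6a2* spans 0.873 CPM in *xbp1* to 166.6 CPM in *srebf2*, *ndufa1* is at 333 CPM in *sec31anju221* and 70.4 CPM in WT, and *uqcrc2a* and *atp5f1b* are highest in the *srebf1* and *srebf2* double mutants.

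The balance of *cox6a2* with its paralog shifted, since *cox6a1* moved less, from 80.0 CPM in WT to 40.7 CPM in *sec31anju221* and 17.9 to 90.3 CPM in the double mutants. *cox6a2* made up 58.4% of the counts of the pair in WT (57.2 to 59.7% over libraries), 5.90% in *sec31anju221*, 22.7% in *srebf1*, 64.9% in *srebf2*, 3.71% in *xbp1*, and 74.7% in *atf6* and in the libraries labelled *atf4a/b*. Such shares are free of the scaling between libraries. Counts were not divided by transcript length, so a share is no ratio of molecules, and how reads common to close paralogs were counted is not given in the sources used here.

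For *cox7a1* and *cox8b*, whose namesakes in mammals are muscle forms, the share was likewise lower in *sec31anju221* than in WT. Whether the zebrafish genes are muscle forms was not tested. *cox7a1* took 25.4% of the counts of *cox7a1* and *cox7a2a* in WT, 5.10% in *sec31anju221*, 2.63% in *srebf1*, 10.4% in *srebf2*, 1.31% in *xbp1*, 13.5% in *atf6* and 8.10% in the libraries labelled *atf4a/b*. *cox8b* took 84.9% of the pair with *cox8a* in WT, 46.9% in *sec31anju221*, 52.6% in *srebf1*, 67.7% in *srebf2*, 41.8% in *xbp1*, 72.7% in *atf6* and 67.1% in the libraries labelled *atf4a/b*. For *cox8b* the *xbp1* libraries (38.9 to 46.7%) overlapped those of *sec31anju221* (46.1 to 47.3%), and for *cox7a1* no 2 genotypes overlapped. By level *cox7a1* was at 550.2 to 561.6 CPM in WT, 190.0 to 193.2 CPM in *sec31anju221*, 92.7 to 100.3 CPM in *srebf1*, 359.6 to 364.3 CPM in *srebf2* and 30.6 to 31.2 CPM in *xbp1*. In *atf6*, at 123.0 to 125.3 CPM, and in the libraries labelled *atf4a/b*, at 102.9 to 112.3 CPM, it was lower than in *sec31anju221* with TMM factors (log2FC -0.63 and -0.82) and higher with library totals alone (0.83 and 0.22).

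Several other complex IV members were highest in *srebf2*, where 8 of 19 well-expressed ones were called higher against a background of 23.1%. *cox7a2l*, which helps join complexes III and IV into supercomplexes in mammals, was at 91.0 CPM in *sec31anju221*, 189 CPM in *srebf1* and 348.8 CPM in *srebf2* (log2FC 1.05 and 1.94). *cox7a2b* was at 51.9, 132.9 and 182.4 CPM in the same order (log2FC 1.36 and 1.81), while its paralog *cox7a2a*, the complex IV member with the highest mean CPM, was at 3566, 3619 and 3113 CPM. In WT *cox7a2a* was at 1634 CPM, so it was 1.13 higher in *sec31anju221* on the log2 scale while *cox7a2b* fell by 1.08. The low-level paralog *cox5b2* was at 1.02 to 2.23 CPM in *sec31anju221*, 4.24 to 5.02 CPM in *srebf1* and 14.1 to 15.3 CPM in *srebf2* (log2FC 1.59 and 3.25). *cox5ab* was at 12.4 to 14.1 CPM in *sec31anju221* and 1.99 to 2.88 CPM in *xbp1* (log2FC -2.39), where it was among the 3 lowest of the members reaching 10 CPM in a genotype.

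In complex V the catalytic subunits, chosen after their values were seen, were high in both *srebf* lines. *atp5f1a*, the alpha subunit, was at 110.1 to 115.6 CPM in WT, 88.5 to 92.0 CPM in *sec31anju221*, 236.4 to 258.3 CPM in *srebf1* and 338.9 to 365.5 CPM in *srebf2* (log2FC 1.48 and 1.98). *atp5f1b*, the beta subunit that carries the catalytic sites, was at 100.8 to 102.6 CPM in WT, 57.6 to 61.6 CPM in *sec31anju221*, 153.6 to 158.1 CPM in *srebf1* and 228.5 to 234.8 CPM in *srebf2* (log2FC 1.39 and 1.96). Among these 4 genotypes the order for both genes was *sec31anju221*, WT, *srebf1*, *srebf2*, with no overlap of libraries under TMM factors. The rise in the *srebf* lines held under each of the 4 scalings. In *xbp1* and the libraries labelled *atf4a/b* the direction rested on the scaling. There log2FC was -0.51 and -0.66 for *atp5f1a* and -0.15 and -0.45 for *atp5f1b* with TMM factors. With factors taken from well-expressed genes it was 0.74 and 0.62, and 1.11 and 0.83. *atp5po*, the stalk subunit with the highest mean CPM in the complex, was at 2725 CPM in WT, 1725 CPM in *sec31anju221*, 3031 CPM in *srebf1* and 3142 CPM in *srebf2* (log2FC 0.81 and 0.87). In *srebf1* all 19 well-expressed members of the complex lay above the median of well-expressed genes, and in *xbp1* 18 of 19 did.

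Within the *xbp1* comparison the small membrane subunits *atp5md* and *atp5mj* were the highest by log2FC of the members reaching 10 CPM in a genotype. *atp5mj* was at 127.2 to 133.3 CPM in *sec31anju221*, 145.7 to 151.9 CPM in *xbp1* and 18.0 to 22.8 CPM in *atf6* (relative log2FC 1.39 and -1.15). *atp5md* was at 8.17 to 8.30 CPM in *sec31anju221* and 9.38 CPM in *xbp1* (log2FC 0.19). The *c*-ring genes, whose products form the ring that protons turn, differed among these lines as well. *atp5mc1* was at 469.1 to 480.2 CPM in WT, 587.1 to 595.4 CPM in *sec31anju221*, 465.1 to 474.1 CPM in *xbp1*, 73.8 to 82.9 CPM in *atf6* and 67.9 to 77.7 CPM in the libraries labelled *atf4a/b*, with relative log2FC values of 0.88, -1.39 and -1.78 in the last 3. *atp5mc3a* was at 62.3 CPM in *sec31anju221*, 20.9 CPM in *xbp1*, 7.82 CPM in *atf6* and 10.5 CPM in the libraries labelled *atf4a/b* (relative log2FC -0.36, -1.47 and -1.32). *atp5mc3b*, by contrast, had relative log2FC values of 0.24, 0.41 and 0.39 in these lines.

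Paralog balance shifted outside complex IV too. *atp5mc3b* made up 48.6% of the counts of *atp5mc3b* and *atp5mc1* in WT, 22.8% in *sec31anju221*, 32.6% in *srebf1*, 42.3% in *srebf2*, 15.9% in *xbp1*, 50.7% in *atf6* and 57.0% in the libraries labelled *atf4a/b*. The share of *uqcrc2a* in its pair with *uqcrc2b* was lowest in *sec31anju221*, at 26.9%, with 33.8% in WT, 60.5% in *srebf1*, 52.1% in *srebf2*, 42.9% in *xbp1*, 43.6% in *atf6* and 70.1% in the libraries labelled *atf4a/b*. *ndufab1b*, of the pair that encodes the mitochondrial acyl carrier protein, took 19.1% in WT and 18.5% in *sec31anju221*, whose libraries overlapped, and 32.4% in *srebf1*, 31.8% in *srebf2*, 21.9% in *xbp1*, 22.6% in *atf6* and 30.8% in the libraries labelled *atf4a/b*. In other pairs 1 form dominated in every genotype: *sdhda* took 0.0917 to 5.63% beside *sdhdb*, and *cox5bb* 0.0320 to 1.87% beside *cox5ba*. Likewise *atp5if1a* took 4.09 to 8.62% beside *atp5if1b*, and *cox4i1l* 5.46 to 9.79% beside *cox4i1*. The complex IV gene *cox6b2* took 66.6% beside *cox6b1* in WT and 35.0 to 42.7% in the mutants, *atf6* included. *atp5mea* took 25.4% beside *atp5meb* in WT, 39.8% in *sec31anju221* and 18.5 to 38.5% in the double mutants.

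**Figure D4:**
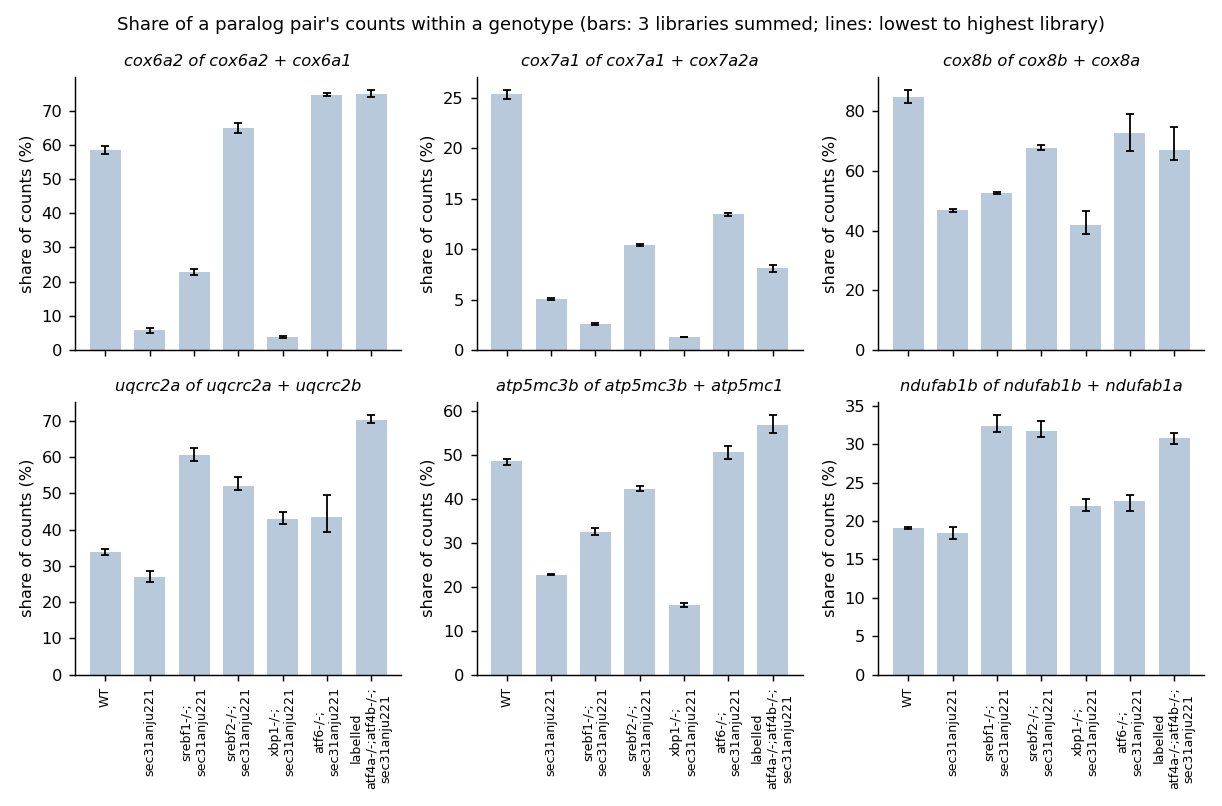
Share of a pair's counts (y axis, %) taken by the first-named paralog in each genotype (x axis), as bars of the 3 libraries summed with lines from the lowest to the highest library. The share of *cox6a2* is 58.4% in WT, 5.90% in *sec31anju221* and 74.7% in *atf6*, and that of *uqcrc2a* is lowest in *sec31anju221* (26.9%).

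At the low end, 4 members stayed below 1 CPM in every genotype: *ndufs1*, *ndufb4*, *ndufa4b* and *ndufa4l2b*. *ndufb4* had 0 to 9 counts over the 3 libraries of a genotype, *ndufa4b* 2 to 42 and *ndufa4l2b* 2 to 16, and no fold is given for them. The other 9 members below the well-expressed level were *ndufa9b*, *ndufb11*, *ndufs8a*, *sdhda*, *cox4i2*, *cox5b2*, *cox5bb*, *ndufa4l2a* and *atp5md*. *cox4i2*, in mammals a form prominent in lung, was at 3.04 to 3.83 CPM in WT and 0.638 to 0.895 CPM in *sec31anju221*.

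The 13 subunit genes of mitochondrial DNA were compared with the nuclear members through their counts, a ratio free of the scaling. For each count of a nuclear member there were 6.69 to 6.72 counts of mitochondrial genes in WT, 3.37 to 3.38 in *sec31anju221*, 1.79 to 1.80 in *srebf1*, 2.71 to 2.73 in *srebf2*, 1.53 to 1.54 in *xbp1*, 4.31 to 4.35 in *atf6* and 3.49 to 3.52 in the libraries labelled *atf4a/b*. The ratio was thus highest in WT and lowest in *xbp1*, and no 2 genotypes overlapped. The relative median of the mitochondrial genes was -0.46 in *sec31anju221* against WT, -0.40 in *srebf1*, 0.39 in *srebf2*, -0.74 in *xbp1*, 0.12 in *atf6* and 0.22 in the libraries labelled *atf4a/b*. In *xbp1* 0 of 13 lay above the median of well-expressed genes, where 63 of 83 nuclear members did, and in *srebf1* 0 of 13, where 72 of 83 did. *mt-cyb*, which encodes cytochrome b of complex III, was at 111900 CPM in WT, 49920 in *sec31anju221*, 31090 in *srebf1*, 36190 in *srebf2*, 12140 in *xbp1*, 14420 in *atf6* and 13270 in the libraries labelled *atf4a/b*. The 13 genes together summed to 188300, 88860, 63310, 92970, 22600, 30200 and 35700 CPM in the same order. *mt-cyb* alone thus held a large part of the ratio above, and a part that differed between genotypes. The ratio without *mt-cyb* was not worked out.

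Other nuclear genes of mitochondria are given by the medians of their well-expressed members. The relative medians of 58 mitochondrial ribosomal protein genes were 0.16 in *sec31anju221* against WT, and -0.19 in *srebf1*, -0.36 in *srebf2*, 0.06 in *xbp1*, -0.90 in *atf6* and -0.79 in the libraries labelled *atf4a/b*. Those of 30 assembly factors were 0.19, -0.24, -0.49, -0.15, -0.63 and -0.60 in the same order. Both lists thus had lower medians than the subunit genes in each of the 5 double mutant comparisons. For 17 TCA cycle genes the values were 0.10, 0.47, 0.72, 0.37, 0.34 and 0.72, for 21 import and carrier genes -0.01, 0.01, 0.19, 0.07, -0.68 and -0.44, and for 11 electron carrier genes -0.11, -0.39, -0.16, -0.20, -0.14 and -0.03. *cycsb*, a gene for cytochrome c, was at 961.3 CPM in WT, 1637 CPM in *sec31anju221*, 472.3 CPM in *srebf1*, 371.9 CPM in *srebf2*, 584.7 CPM in *xbp1*, 116.1 CPM in *atf6* and 97.98 CPM in the libraries labelled *atf4a/b*. It was thus lower in both *srebf* lines than in *sec31anju221* (log2FC -1.79 and -2.14), where most subunit genes were higher. Whether these lists differ from the members was not tested, as each genotype counts as 1 sample.

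**Figure D5:**
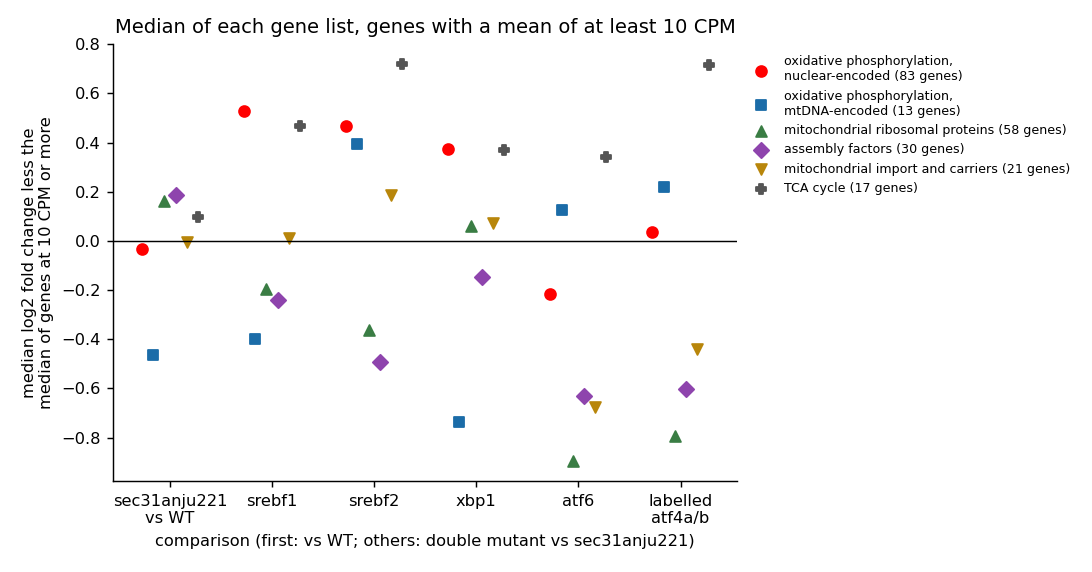
Median relative log2 fold change (y axis) of the nuclear members and of 5 other lists of mitochondrial genes in the 6 comparisons (x axis), over well-expressed genes. The members lie at 0.53, 0.47 and 0.37 in *srebf1*, *srebf2* and *xbp1*, while the genes of mitochondrial DNA lie at -0.40, 0.39 and -0.74.

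Of 16 regulators of mitochondrial biogenesis, 6 were well expressed, with relative medians of -0.17 in *sec31anju221* against WT, -0.17 in *srebf1*, -0.37 in *srebf2*, 0.23 in *xbp1*, -0.18 in *atf6* and -0.46 in the libraries labelled *atf4a/b*. The 3 described next were chosen after their values were seen. *pprc1*, a coactivator of the PGC-1 family, was at 10.2 CPM in WT, 10 CPM in *sec31anju221*, 25.5 CPM in *srebf1* and 28.9 CPM in *srebf2* (log2FC 1.35 and 1.53). *nrf1*, in mammals a transcription factor for many respiratory subunit genes, was at 11.2 CPM in WT, 27.7 CPM in *sec31anju221* and 7.52 to 11.9 CPM in the double mutants. *tfam*, which packages and transcribes mitochondrial DNA, was at 87.2 CPM in WT, 67.7 CPM in *sec31anju221*, 83.9 CPM in *srebf1*, 54.1 CPM in *srebf2*, 34.8 CPM in *xbp1*, 14.4 CPM in *atf6* and 15.7 CPM in the libraries labelled *atf4a/b*.

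Over the 7 genotypes, the highest level under TMM factors was in *srebf2* for 35 of the 83 well-expressed members, in *srebf1* for 32, in WT for 12 and in *sec31anju221* for 4. The lowest was in *atf6* for 70, in *xbp1* for 7 and in the libraries labelled *atf4a/b* for 6. With factors from well-expressed genes the highest was in *xbp1* for 21, *srebf1* for 19, *srebf2* for 15, the libraries labelled *atf4a/b* for 12, WT for 11 and *sec31anju221* for 5. The lowest was then in *atf6* for 30 and in WT and *sec31anju221* for 18 each. Which genotype stood highest was therefore set by the scaling for many members, while *atf6* held the lowest level of more members than any other genotype under both. This ranking was not made with library totals alone. As a share of all counts the members took less in WT, at 1.36 to 1.37%, than in *atf6*, at 1.45 to 1.46%.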

How the data were processed

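The authors dissected livers, dissociated them with trypsin and made low-input libraries. Per the submitters' processing notes and the study's methods, read pairs were mapped to GRCz11 with HISAT2 2.1.0 and assigned to Ensembl genes with featureCounts 1.6.0. The authors deposited whole-number counts per gene, not normalized, for each of 21 libraries. The Ensembl release, strand setting and treatment of multiply mapped reads are not given in the sources used here, so close paralogs and overlapping genes are uncertain.

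A name table gave symbols to 29201 of 32520 IDs. Where it gave the same symbol to paralogs, or a symbol without the paralog letter, 16 members were named by the RefSeq table of assembly GRCz12tu. The naming used 6 to 22 shared genes among the 15 nearest on each side. In the name table *cox6a2* carried the symbol *cox6a1*. R 4.3.3 and edgeR 4.0.16 (TMM, quasi-likelihood fit over all libraries) were run on 30792 genes with a scaled total of at least 10. The fit was tried on simulated WT and *sec31anju221* counts that shared a common profile apart from 200 changed genes. That simulation could not test the scaling between genotypes. CPM use TMM-scaled totals. The fit's p-values were not used, because the libraries of a genotype were counted as 1 sample. Alternatives were DESeq2 1.42.0, other scalings, no filter, well-expressed members alone, the 6 libraries of a comparison alone, a replicate block and each library left out. Totals of 9608400 to 23095746 counts limit counting error only.

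Named members are the highest by mean CPM in each complex, the 3 highest and 3 lowest by log2FC in each comparison among members reaching 10 CPM in a genotype, and paralogs with at least 2 forms at 1 CPM. Not every paralog pair that met this rule is shown. Others are said to have been chosen after their values were seen. Members and lists were chosen with earlier results of these data known. Symbols matched in 13 of 13 cases for mitochondrial DNA, 49 of 51 for assembly factors, 22 of 24 for electron carriers, 20 of 22 for the TCA cycle, 16 of 20 for regulators, 32 of 41 for import and carriers, 20 of 20 for hepatocytes, 12 of 22 for skeletal muscle, 13 of 20 for exocrine pancreas, 11 of 15 for intestine, 10 of 18 for erythrocytes, 6 of 10 for macrophages, 9 of 10 for biliary cells, 7 of 10 for endothelium and 7 of 9 for stellate cells.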

Additional observations from a re-analysis of the deposited data

How the results depend on the processing

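The scaling between libraries decided more than any other choice. With TMM factors taken from well-expressed genes, the median log2FC of the members changed sign for *sec31anju221* against WT (0.01), *xbp1* (0.44) and the libraries labelled *atf4a/b* (0.08), and was -0.18 for *atf6*, 0.48 for *srebf1* and 0.39 for *srebf2*. Members called higher then numbered 12 in the libraries labelled *atf4a/b*, 9 in *atf6* and 12 in *xbp1*, and those called lower 12, 14 and 4. With library totals alone the medians were 0.52 for *sec31anju221* and 0.64 for *xbp1*, both with the sign changed, and -0.17 for the libraries labelled *atf4a/b*, -0.24 for *atf6*, 0.48 for *srebf1* and 0.16 for *srebf2*. Members called higher were then 10 in the libraries labelled *atf4a/b*, 9 in *atf6*, 25 in *sec31anju221*, 12 in *srebf2* and 16 in *xbp1*, and those called lower 16 in the libraries labelled *atf4a/b*, 14 in *atf6*, 2 in *sec31anju221* and 2 in *xbp1*. These factors differ by construction, and which one is right for these livers was not tested. DESeq2's size factors gave medians of -1.15 for the libraries labelled *atf4a/b*, -1.61 for *atf6*, -0.17 for *sec31anju221*, 0.77 for *srebf2* and -0.74 for *xbp1*. Over members at 10 CPM or more the medians were -1.74 for *atf6* and -0.14 for *sec31anju221*, members called higher were 2 in the libraries labelled *atf4a/b*, 1 in *atf6*, 5 in *sec31anju221* and 0 in *xbp1*, and those called lower 1 in *srebf1* and 2 in *srebf2*, since fewer genes were counted. Fits to the 6 libraries compared gave medians of -0.17 for *sec31anju221*, 0.67 for *srebf1* and 0.80 for *srebf2*, and 3 members called lower in *srebf2*.

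The replicate number was not used to pair the libraries. The deviations of same-numbered libraries correlated at -0.08 to 0.04 over 18 pairs. Since these deviations are little more than counting noise, they cannot show whether the libraries were paired. With the replicate number as a block the median for *sec31anju221* was -0.12 and no other median or count moved beyond its limits. Leaving out each library in turn gave medians of -0.13 to -0.08 for *sec31anju221*, -1.21 to -1.18 for the libraries labelled *atf4a/b*, -1.71 to -1.67 for *atf6*, -0.84 to -0.77 for *xbp1*, 0.57 to 0.63 for *srebf1* and 0.56 to 0.63 for *srebf2*. Members called higher ranged from 8 to 10, 4 to 6, 3 to 4, 2 to 3, 19 to 21 and 22 to 23 in the same order, and those called lower from 12 to 13, 57 to 61, 76 to 80, 28 to 34, 3 to 4 and 6 to 7. These ranges say nothing of differences between animals, since the libraries of a genotype were counted as 1 sample.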
